A study of Rattus norvegicus with 18 samples.

Results

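The genes described here encode the extracellular matrix of the culture, the integrins that hold cells to it, and the proteases and inhibitors that turn it over. A gene was included by its name in the array file, when it was a collagen chain (Col, a number, a, a number), a laminin chain (Lama, Lamb or Lamc), an integrin chain (Itga or Itgb), a matrix metalloproteinase (Mmp), a tissue inhibitor of metalloproteinases (Timp), or Fn1, Sparc, Tnc, Vcan, Ncan, Bcan, Nid1 or Hspg2. This rule took 87 genes, with 89 probes, of the 21563 gene symbols on the array. The rule uses the name alone, but it was chosen with earlier results of these data known. Of the 89 probes, 4 belong to binding partners that carry an integrin or collagen name (Itgb1bp1, Itgb1bp2, Itgb3bp and Col4a3bp). They were counted with the rest and are described at the end. No probe carried the name Tnc, Ncan, Hspg2 or Timp4. The probe for Vcan is filed under an older name and is treated among the related genes.

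The cells were primary cortical neurons taken from rats at embryonic day 18 and put for 6 hours on day 1 of culture under a lentivirus that carried either CHD5 shRNA or the scrambled control shRNA, both in pLKO.1. RNA came from whole cultures on day 5, 9 or 12, and each lentivirus had replicates a, b and c on each day, which gives 18 arrays in 6 groups of 3. The sources do not state the strain or whether the replicates were separate preparations, so the p-values measure the spread between these samples, which may be technical. The arrays used 1 CHD5 lentivirus. In its later validation the study treated a target as possibly off-target when a different shRNA did not reproduce it. Off-target effects were not tested here. In RNA of a whole culture, fewer cells of a type cannot be told apart from less RNA per cell. The question asked was whether the matrix genes differed between CHD5-depleted and control cultures, and how they moved while the cultures aged.

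The matrix of the brain is poor in fibrillar collagens and rich in hyaluronan-binding proteoglycans such as brevican (Bcan), with laminin, nidogen and collagen IV kept mostly to the basement membranes around vessels and under the meninges. Integrins are pairs of an alpha and a beta chain, of which the beta-1 chain joins the largest number of alpha chains and binds laminin, fibronectin and collagen. Metalloproteinases cut these proteins at or near the cell surface. The Timp proteins block them.

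The starts of 3 genes that the results turn on are printed here. Each is the 250 bases before the annotated start of the gene in RefSeq, build GRCr8, written on the strand of the gene, with matches to 5 motifs in capitals. Nid1 is shown because it was lower after CHD5 depletion at both day 5 and day 9, Col11a1 because its day 12 difference was called in each of the processing alternatives tried, and Sparc because its rise over time was the largest measured in both cultures among the called members detected on day 5. Nid1 lies at chr17:93069036-93069285, plus strand, Col11a1 at chr2:204508886-204509135, plus strand, and Sparc at chr10:40038817-40039066, minus strand.
Nid1: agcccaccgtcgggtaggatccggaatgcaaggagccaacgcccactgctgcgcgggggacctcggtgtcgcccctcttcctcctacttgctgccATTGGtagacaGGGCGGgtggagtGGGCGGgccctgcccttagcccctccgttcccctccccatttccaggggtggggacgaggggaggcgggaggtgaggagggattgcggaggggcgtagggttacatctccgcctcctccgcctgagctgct
Col11a1: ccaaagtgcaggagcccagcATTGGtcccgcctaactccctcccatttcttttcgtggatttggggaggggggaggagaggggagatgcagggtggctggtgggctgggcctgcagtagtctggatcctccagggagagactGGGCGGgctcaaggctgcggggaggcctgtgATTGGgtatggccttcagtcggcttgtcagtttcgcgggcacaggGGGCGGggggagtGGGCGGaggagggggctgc
Sparc: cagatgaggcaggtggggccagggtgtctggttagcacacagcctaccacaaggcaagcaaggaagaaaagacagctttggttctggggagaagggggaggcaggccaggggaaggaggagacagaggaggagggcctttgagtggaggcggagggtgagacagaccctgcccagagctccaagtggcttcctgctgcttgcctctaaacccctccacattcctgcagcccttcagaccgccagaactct
The motifs, searched on both strands, were the TATA box (TATAAA), the CCAAT box (CCAAT), the GC box (GGGCGG), the AP-1 site (TGACTCA) and the full palindromic NFI site, and no matches overlapped in these sequences. Nid1 held a CCAAT box on the other strand and 2 GC boxes. Col11a1 held 2 CCAAT boxes on the other strand and 3 GC boxes, the nearest of which ended at position -14, where -1 is the base before the start. Sparc held none of the 5. A window was at hand for 25 of the 36 genes of the matrix set that were tested, binding partners left aside. A GC box was in 84% of them, against 30.5% of all 33469 windows of this length. A CCAAT box was in 28% against 34%, and a TATA box in 4% against 12.9%. None of the 25 held the AP-1 site (4.05% of all windows) or the NFI site (0.0359%). The shares of all windows include genes that were not on the array or not detected, so the sets are not alike. Shares among all tested genes were not computed. A match describes these letters only.

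Of the matrix probes 48 gave no signal above background on any array. A probe was taken as detected on an array where the detection p-value in the file, which compares it with the negative control beads, was at most 0.02. By this limit 41 of the 89 probes (46.1%) were detected on at least 1 of the 18 arrays, against 49.2% of all 22523 probes, and only these 41 were tested. Detected on all 18 arrays were 13 of them, and 13 were detected on 1 to 5 arrays. All 4 glycoproteins and all 3 Timp probes were detected, as were 5 of 8 laminin chains, 15 of 33 collagen probes, 7 of 22 metalloproteinases and 3 of 15 integrin chains. Col1a1 and Col3a1, the chains that make up the bulk of fibrillar collagen in skin and bone, were detected on no array, nor were Col2a1, Col6a1 or Col6a2. The integrin alpha chains Itga1, Itga2, Itga3, Itga4, Itga5, Itga6, Itga10 and Itga11 were also detected on none, nor were the beta chains Itgb2, Itgb6, Itgb7 and Itgb8. The same held for Mmp2, a gelatinase, and for Mmp3, Mmp7, Mmp8, Mmp12 and Mmp13. A probe that is not detected gives no evidence that its gene is silent. Levels of different probes are not compared, since each probe binds with its own strength.

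**Figure D1:**
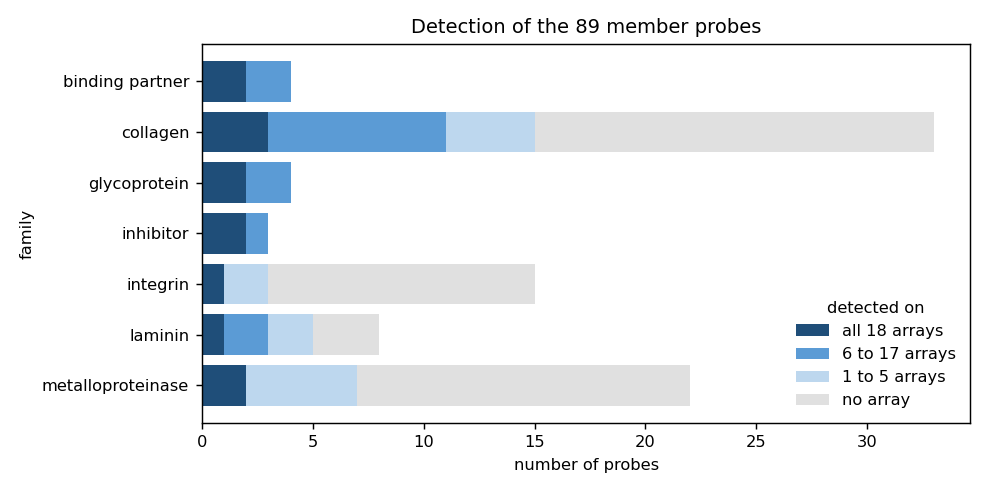
Number of member probes in each family (horizontal axis) by the number of the 18 arrays on which they were detected, with a detection p-value of at most 0.02. Grey parts of the bars are the 48 probes detected on no array, which make up 12 of the 15 integrin and 15 of the 22 metalloproteinase probes.

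All levels below are normalized signals, which are the signals of each array brought to the same mean and spread on the log2 scale, and all differences are on the log2 scale. The mean signal of the arrays lay between 400.2 and 789.3 with 8360 to 9931 probes detected, apart from control replicate b of day 9, with 134.8 and 7047 probes. On that array the scaling raised probes near background. The 13 matrix probes detected on 1 to 5 arrays stood between 123 and 178 there, and between 60.2 and 114 on the other 17 arrays. Bright probes read high there too. The summed signal of the neuronal markers was 232000, against 41900 and 50300 in the other control replicates of that day. Some members between these levels read low, such as Mmp14 at 398 against 1080 and 865. The counts of matrix probes are therefore also given without this array. Those of cell type markers and related genes include it. No probe was annotated to Chd5 itself, and its depletion was not read from these arrays. Markers of astrocytes moved with time and with CHD5 depletion. The summed normalized signal of 12 tested astrocyte markers of 15 listed was 9830 to 10300 in control and 7830 to 8290 in CHD5 shRNA cultures at day 5, and 61200 to 65100 against 32900 to 34600 at day 12. On day 9 it was 34600 and 42200 in control replicates a and c, 137000 on the weak array b, and 20300 to 25900 in the CHD5 shRNA cultures. Of these 12 markers none was called at day 5, 8 were lower at day 9 and 8 at day 12, by the test described below. Their part in the differences of the matrix genes was not tested. Of 10 microglial markers with a probe 8 were detected on no array, as were 7 of 10 endothelial and pericyte markers, among them Cdh5, Tek, Vwf and Rgs5.

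In CHD5-depleted cultures the basement membrane glycoprotein Nid1 was lower than in control at day 5. At day 9 Nid1, the laminin chain Lamb2 and the collagen chain Col1a2 were lower and the inhibitor Timp2 was higher. At day 12 the brain proteoglycan Bcan and the collagen chain Col11a1 were lower. A probe was called where limma's Benjamini-Hochberg adjusted p over all 11079 tested probes was under 0.05. At day 5, 1 of the 41 tested matrix probes was called (2.44%), a lower one, against 0.171% of all tested probes (0.0451% higher and 0.126% lower). At day 9, 4 were called (9.76%), 3 of them lower, against 5.89% of all tested probes (3.65% higher and 2.25% lower). With quantile normalization 6 were called at this day, 0 higher and 6 lower, against 9.42% of all tested probes (4.79% higher and 4.63% lower). At day 12, 2 were called (4.88%), both lower, against 5.47% (2.23% higher and 3.24% lower). On days 5, 9 and 12 the 41 probes had median differences of -0.02, -0.17 and -0.06, and all tested probes 0.01, -0.02 and 0.01. At day 9, 35 of the 41 differences were below 0. Without control replicate b of day 9, 2, 7 and 5 matrix probes of 38 tested were called at days 5, 9 and 12, all lower, against 1.49%, 10.8% and 13.3% of all tested probes, and the day 9 median was -0.08 with 25 of 38 below 0. These were Nid1 and Timp1 at day 5, Nid1, Lamb2, Col1a2, Col11a1, Col16a1, Mmp14 and Timp1 at day 9, and Bcan, Lamb2, Col11a1, Mmp14 and Timp3 at day 12. The 3 arrays of each lentivirus did not overlap for 11 of the 41 probes at day 5 (11% of all tested probes did not overlap), for 11 at day 9 (20.6%) and for 21 at day 12 (38.2%).

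**Figure D2:**
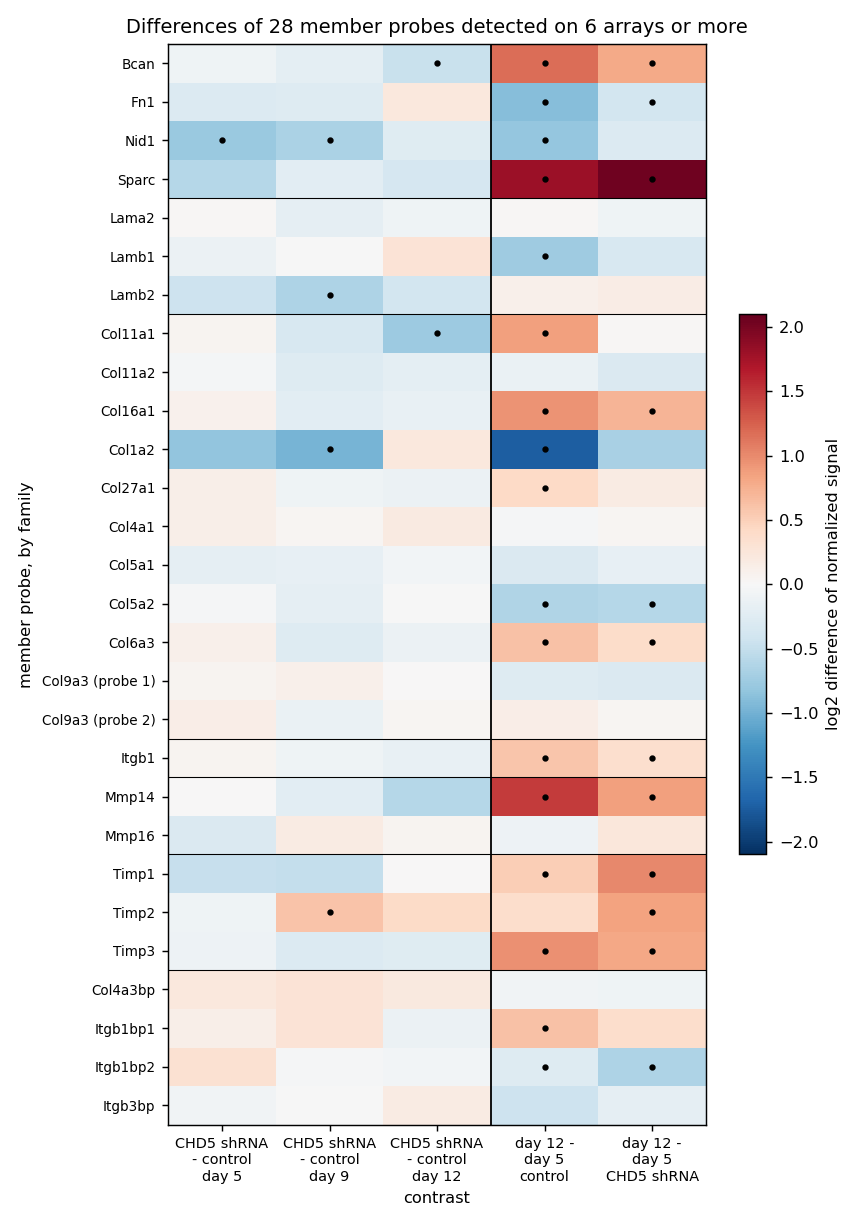
Log2 difference (colour) of each of the 28 member probes detected on 6 or more arrays, in rows by family, for the 3 comparisons of CHD5 shRNA with control and the 2 comparisons of day 12 with day 5. Black points mark limma adjusted p-values under 0.05, of which there are 1, 4 and 2 in the first 3 columns and 17 and 12 in the last 2.

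Nid1 encodes nidogen-1, which ties laminin to collagen IV. At day 5 it stood at 395, 424 and 387 in the control arrays a, b and c and at 213, 274 and 221 in the CHD5 shRNA arrays. At day 9 the control arrays had 422, 281 and 352 and the CHD5 shRNA arrays 199, 251 and 210. At day 12 the values were 229, 227 and 234 against 194, 201 and 182. All CHD5 shRNA arrays lay below all control arrays of their day on each of the 3 days, and the distance between the groups was smallest at day 12, where the control arrays lay within the range of the depleted cultures of day 5. The difference was -0.78 (SE 0.13, limma adjusted p 0.0172) at day 5, -0.67 (SE 0.13, adjusted p 0.0075) at day 9 and -0.26 (SE 0.13, adjusted p 0.368) at day 12. The change of the difference from day 5 to day 12 was 0.52 (SE 0.19, limma adjusted p 0.437), so that the days were not shown to differ. With arrays of the same day and letter taken as a block, which the check of the letters allows at day 5, the day 5 difference was -0.78 with a limma adjusted p of 0.0738 and no matrix probe was called. The day 5 call was also lost without control replicate b of day 5 (limma adjusted p 0.124), CHD5 shRNA replicate a (0.0943) or CHD5 shRNA replicate c (0.107), and the day 9 call without CHD5 shRNA replicate c of day 9 (0.0572). Median centring ended both calls (limma adjusted p 0.12 and 0.0616), as did dropping the detection filter (0.148 and 0.0776). The day 9 call was also lost in the fit of that day by itself (0.312). Nid1 was called on neither day by the criteria of the study's methods.

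The other glycoproteins were not called at day 5 or day 9. Sparc, a secreted protein that binds collagen, had 374, 344 and 353 in control and 314, 217 and 189 in CHD5 shRNA arrays at day 5, groups that did not overlap, with a difference of -0.61 (SE 0.20, limma adjusted p 0.444). At day 9 and day 12 the Sparc difference was -0.22 (adjusted p 0.576) and -0.36 (adjusted p 0.446). The day 9 difference of Sparc was -0.46 without the weak control array of that day (limma adjusted p 0.112). Fn1 encodes fibronectin, a ligand of several integrins. At day 9 it read 135, 165 and 159 in control and 135, 123 and 122 in CHD5 shRNA arrays. The control arrays were the higher at day 9, by a margin under the rounding of these values, and the lower at day 12. Its difference was -0.29, -0.27 and 0.22 at days 5, 9 and 12, with limma adjusted p-values of 0.61, 0.156 and 0.342.

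Bcan encodes brevican, the proteoglycan that binds hyaluronan around neurons. At day 5 it was detected on none of the 6 arrays, with values of 63.9 to 83. At day 9 the control arrays had 108, 127 and 120 and the CHD5 shRNA arrays 101, 107 and 99.7, of which 2 control arrays and no CHD5 shRNA array passed the detection limit. At day 12 it was detected on all 6 arrays, at 171, 168 and 157 in control and 120, 117 and 120 in CHD5 shRNA cultures. The groups were apart at day 12, with a spread inside each group far below the gap. The day 12 difference was -0.47 (SE 0.10, limma adjusted p 0.0107), and those at day 5 and day 9 were -0.09 and -0.21 (adjusted p 0.999 and 0.271). Leaving out control replicate a of day 12 ended the call (limma adjusted p 0.0592), as did leaving out replicate b of the depleted cultures of that day (0.0512). The call was also lost with median centring (limma adjusted p 0.306). The median difference of the 12 astrocyte markers at day 12 was -0.76, and their part in the Bcan difference was not tested.

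Among the laminins, which are heterotrimers of an alpha, a beta and a gamma chain, Lamb2 was lower at day 9. This chain had 179, 131 and 142 in control and 120, 100 and 112 in CHD5 shRNA arrays at day 5, 153, 183 and 166 against 99.6, 115 and 106 at day 9, and 143, 149 and 192 against 115, 135 and 118 at day 12. The groups were apart on all 3 days. The difference was -0.44 (SE 0.13, limma adjusted p 0.353), -0.65 (SE 0.13, adjusted p 0.00881) and -0.39 (SE 0.13, adjusted p 0.115). The day 12 difference was called as well when the weak array of day 9 was left out (-0.40, limma adjusted p 0.0388). In the CHD5 shRNA group of day 9 Lamb2 was detected on 1 array. Leaving out replicate a or c of the depleted day 9 cultures ended the call (limma adjusted p 0.0518 and 0.0571). Median centring and the fit of day 9 by itself ended it too (limma adjusted p 0.095 and 0.234). The other beta chain, Lamb1, was detected on all 18 arrays and had differences of -0.12, -0.02 and 0.29 (limma adjusted p 0.999, 0.961 and 0.357). The day 9 value of Lamb1 was -0.17 without control replicate b of that day (limma adjusted p 0.409). Lama2 and Lamc1 were called on no day.

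Of the 15 tested collagen probes, none was called at day 5, Col1a2 was lower at day 9 and Col11a1 at day 12. Col1a2 encodes the alpha-2 chain of type I collagen. Its arrays a, b and c read 389, 505 and 344 in control and 245, 256 and 190 in CHD5 shRNA cultures at day 5, 439, 270 and 302 against 231, 192 and 106 at day 9, and 162, 109 and 104 against 161, 113 and 158 at day 12. The groups were apart at days 5 and 9 and overlapped at day 12. The difference was -0.84 (SE 0.26, limma adjusted p 0.364) at day 5, -0.98 (SE 0.26, adjusted p 0.0325) at day 9 and 0.21 (SE 0.26, adjusted p 0.858) at day 12. The change from day 5 to day 12 was 1.05 (SE 0.37, limma adjusted p 0.399). The day 9 call was lost without control replicate a (limma adjusted p 0.0585), control replicate c (0.0531) or CHD5 shRNA replicate c (0.229) of day 9. Without this last array, the lowest of the 6 and the 1 on which the probe was not detected, the day 9 difference was -0.65. The day 9 call was also lost with median centring (limma adjusted p 0.133) and without the detection filter (0.138). It was lost as well with array weights (0.224), in the fit of that day by itself (0.343) and by the criteria of the study's methods.

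Col11a1 encodes a chain of type XI collagen, a minor fibrillar collagen. It had 239, 200 and 214 in control and 237, 231 and 211 in CHD5 shRNA arrays at day 5, 273, 209 and 210 against 191, 189 and 165 at day 9, and 445, 360 and 377 against 256, 209 and 229 at day 12. The groups overlapped at day 5 and were apart at days 9 and 12, most at day 12. The difference was 0.06 (SE 0.12, limma adjusted p 0.999), -0.34 (SE 0.12, adjusted p 0.121) and -0.77 (SE 0.12, adjusted p 0.00112). Leaving out the weak control array of day 9 brought a call at that day (-0.41, SE 0.13, limma adjusted p 0.0434). The change of the difference between day 5 and day 12 was -0.83 (SE 0.18, limma adjusted p 0.075), and without control replicate b of day 9 it was -0.84 (SE 0.16, limma adjusted p 0.00835). A second probe of Col11a1 was detected on no array and was not tested. Col9a3 also had 2 probes, both tested, with differences between -0.13 and 0.13 on the 3 days and no call. The collagen IV chains Col4a1 and Col4a2, the core of basement membranes, were called on no day (smallest limma adjusted p 0.446). On days 5, 9 and 12 the differences of Col4a1 were 0.12, 0.05 and 0.18, and those of Col4a2 -0.04, -0.12 and 0.06. The day 9 values were 0.13 and 0.06 without the weak array of that day, so that the sign turned for Col4a2. Col4a2 was detected on only 2 arrays.

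The integrin chain Itgb1 was detected on every array. It had 745, 963 and 986 in control and 919, 900 and 975 in CHD5 shRNA arrays at day 5, 1140, 1230 and 1200 against 1150, 1090 and 1110 at day 9, and 1320, 1330 and 1340 against 1140, 1270 and 1170 at day 12. The groups overlapped at day 5 and day 9, and at day 12 the control arrays were the higher. Its difference was 0.06, -0.09 and -0.15 (SE 0.10 each, limma adjusted p 0.999, 0.65 and 0.541). Itga7 and Itgb4 were each detected on 1 array and were not called.

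None of the 7 tested metalloproteinases was called between the lentiviruses on any day, with 1, 0 and 1 of them at an unadjusted p under 0.05. Mmp14, the membrane-bound protease that activates pro-Mmp2, had 610, 519 and 459 in control and 512, 575 and 499 in CHD5 shRNA arrays at day 5, 1080, 398 and 865 against 708, 605 and 546 at day 9, and 1540, 1510 and 1320 against 948, 1030 and 900 at day 12. The groups overlapped at days 5 and 9, with control replicate b as the lowest value of day 9, and were apart at day 12. The difference was 0.01, -0.22 and -0.60 (SE 0.24 each, limma adjusted p 0.999, 0.626 and 0.19). Without control replicate b of day 9 it was -0.66 (SE 0.13, limma adjusted p 0.00278) at day 9 and -0.61 (SE 0.12, adjusted p 0.00132) at day 12. Mmp16, another membrane-bound member, was detected on all arrays and differed by -0.30, 0.18 and 0.05 (limma adjusted p 0.569, 0.373 and 0.962). Mmp9, a gelatinase, was detected on 4 arrays, 3 of them the control arrays of day 9, and differed by -0.02, -0.22 and 0.00 (adjusted p 0.999, 0.461 and 0.999). With the weak array left out, the day 9 values were 0.09 for Mmp16 and 0.06 for Mmp9, whose sign turned (limma adjusted p 0.604 and 0.672).

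Of the 3 inhibitors Timp2 was called, higher at day 9. It had 359, 377 and 547 in control and 419, 385 and 382 in CHD5 shRNA arrays at day 5, 379, 292 and 301 against 526, 390 and 570 at day 9, and 538, 559 and 526 against 586, 847 and 726 at day 12. The CHD5 shRNA arrays lay above all control arrays at days 9 and 12, by a narrow margin at day 9. The difference was -0.09 (SE 0.17, limma adjusted p 0.999), 0.60 (SE 0.17, adjusted p 0.0443) and 0.40 (SE 0.17, adjusted p 0.237). The day 9 call stood close to the limit: it was lost under 6 of 9 other ways of processing, and without any 1 of 12 arrays of all 3 days, 4 of them of day 9, with limma adjusted p-values of 0.0531 to 0.335. The criteria of the study's methods, not among these 9, did not call Timp2 at day 9 either. Timp1 had 308, 302 and 287 in control and 241, 194 and 210 in CHD5 shRNA arrays at day 5, 455, 334 and 591 against 340, 342 and 272 at day 9, and 461, 391 and 440 against 431, 411 and 448 at day 12. It was apart only at day 5, and its difference was -0.48, -0.50 and 0.00 (SE 0.16 each, limma adjusted p 0.404, 0.0644 and 0.999). Without control replicate b of day 9, Timp1 was called lower at day 5 (-0.49, SE 0.11, limma adjusted p 0.0278) and at day 9 (-0.73, SE 0.13, adjusted p 0.000834). Timp3, which stays bound to the matrix, differed by -0.10, -0.29 and -0.26 (SE 0.10 each, limma adjusted p 0.999, 0.0875 and 0.16), and its day 12 difference without control replicate b of day 9 was -0.27 (adjusted p 0.0468).

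**Figure D3:**
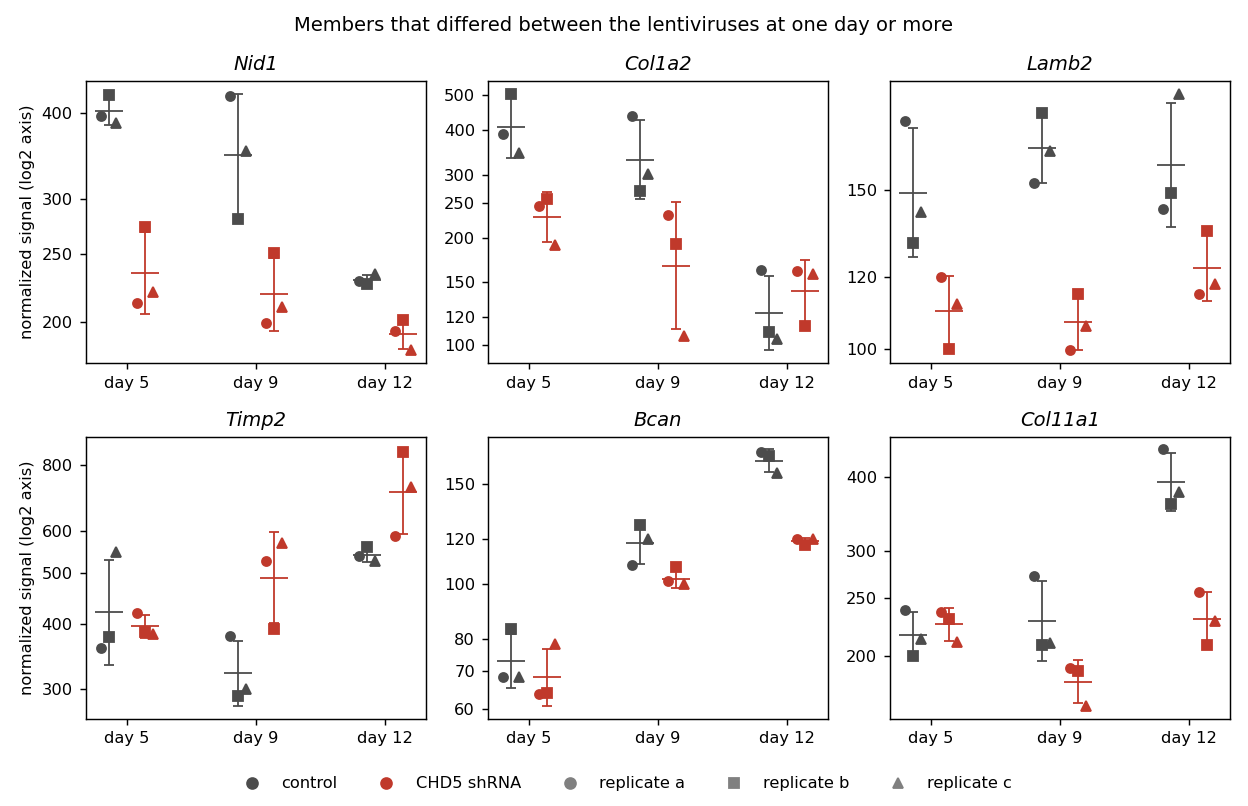
Normalized signal (vertical axis, log2 scale) of the 6 members called between CHD5 shRNA (red) and control (grey) on day 5, 9 or 12, one point per array, with horizontal bars for the mean of the logs and error bars for 1 SD (n = 3). Nid1 and Lamb2 of the CHD5 shRNA arrays lie below the control arrays on all 3 days, and Col11a1 at days 9 and 12.

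As the cultures aged from day 5 to day 12, Sparc, Mmp14, Bcan, Timp3 and Col16a1 rose in both control and CHD5-depleted cultures, and Fn1 and Col5a2 fell in both. In control, 17 of the 41 matrix probes were called (41.5%), 11 higher and 6 lower at day 12, against 23.6% of all tested probes (11.1% higher and 12.5% lower). In the CHD5 shRNA cultures 13 were called (31.7%), 10 higher and 3 lower, against 17% of all tested probes (8.46% higher and 8.56% lower). The median change over the 41 probes was 0.03 in each, and over all tested probes -0.02 in control and -0.01 in CHD5 shRNA cultures. Of the 13 probes detected on all arrays, 9 were called in control and 6 in CHD5 shRNA cultures, against 27.8% and 20.3% of the 6437 probes of the array detected on all arrays. The arrays of day 5 and day 12 did not overlap for 26 of the 41 probes in either culture (44.3% of all tested probes in control and 47.6% in CHD5 shRNA cultures). Without control replicate b of day 9, which belongs to neither day but enters the estimate of the spread, 22 and 21 of 38 probes were called (39% and 32.2% of all tested probes). All 12 tested astrocyte markers rose over these days in both cultures, by a median of 2.06 and 2.03, and their part in the changes of the matrix genes was not tested.

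Among the called members detected on day 5, Sparc had the largest rise in both cultures. For members that no day 5 array detected, such as Bcan, the rise has only a lower bound and no rank. From the day 5 values above it reached 608, 384 and 652 in control and 588, 407 and 405 in CHD5 shRNA arrays at day 9, and 1470, 1100 and 1180 against 897, 913 and 1110 at day 12. Each day lay above the one before in both cultures, without overlap. The change from day 5 to day 12 was 1.80 (SE 0.20, limma adjusted p 2.84e-06) in control and 2.04 (SE 0.20, adjusted p 1.18e-06) in CHD5 shRNA cultures, and these changes differed by 0.25 (SE 0.29, adjusted p 0.999).

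Mmp14 rose by 1.47 (SE 0.24, limma adjusted p 0.000155) in control and by 0.86 (SE 0.24, adjusted p 0.0174) in CHD5 shRNA cultures. In control 0.45 (limma adjusted p 0.163) of the rise lay between day 5 and day 9 and 1.01 (adjusted p 0.0209) between day 9 and day 12. These parts were 0.90 and 0.60 without control replicate b of day 9 (limma adjusted p 4.79e-05 and 0.00799). The change differed between the cultures by -0.61 (SE 0.34, limma adjusted p 0.875). The call in the depleted cultures was lost when their replicate a or c of day 5 or b of day 12 was left out. Where a bound is given, here and below, the p-value beside it tests the measured signals, not the bound. Bcan was not detected on any day 5 array, so its rise is a lower bound. It was at least 1.73-fold higher at day 12 than at day 5 in control (limma adjusted p 1.1e-07) and at least 1.20-fold higher in CHD5 shRNA cultures (adjusted p 2.49e-05), where the bound sets the mean of day 12 against the lowest signal among detected probes of each day 5 array or the probe's own signal, whichever was higher.

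All 3 inhibitors were higher at day 12 than at day 5 in the depleted cultures. Timp3 read 84.5, 95.4 and 83.5 in control at day 5 and 181, 157 and 177 at day 12, and 81.9, 80.3 and 83.3 against 134, 146 and 150 in the CHD5 shRNA cultures. Its rise was 0.97 (SE 0.10, limma adjusted p 5.84e-07) in control, where 1 array of day 5 detected it, and at least 1.44-fold in CHD5 shRNA cultures (adjusted p 1.06e-05), where none did. Timp1 rose by 0.52 (SE 0.16, limma adjusted p 0.0194) in control and by 1.01 (SE 0.16, adjusted p 0.000162) in CHD5 shRNA cultures. In control Timp1 stood 0.58 above day 5 at day 9 (limma adjusted p 0.0122) and changed by -0.06 from then to day 12 (adjusted p 0.847). With replicate b of day 9 left out they were 0.81 (limma adjusted p 8.27e-05) and -0.28 (adjusted p 0.237). The control call of Timp1 was lost without control replicate c of day 5 or replicate a or c of day 12. Timp2 rose by 0.85 (SE 0.17, limma adjusted p 0.0017) in CHD5 shRNA cultures. In control its change was 0.36 (SE 0.17, limma adjusted p 0.137). The changes of Timp1 and Timp2 differed between the cultures by 0.48 each (limma adjusted p 0.688 and 0.778), so neither was shown to differ.

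**Figure D4:**
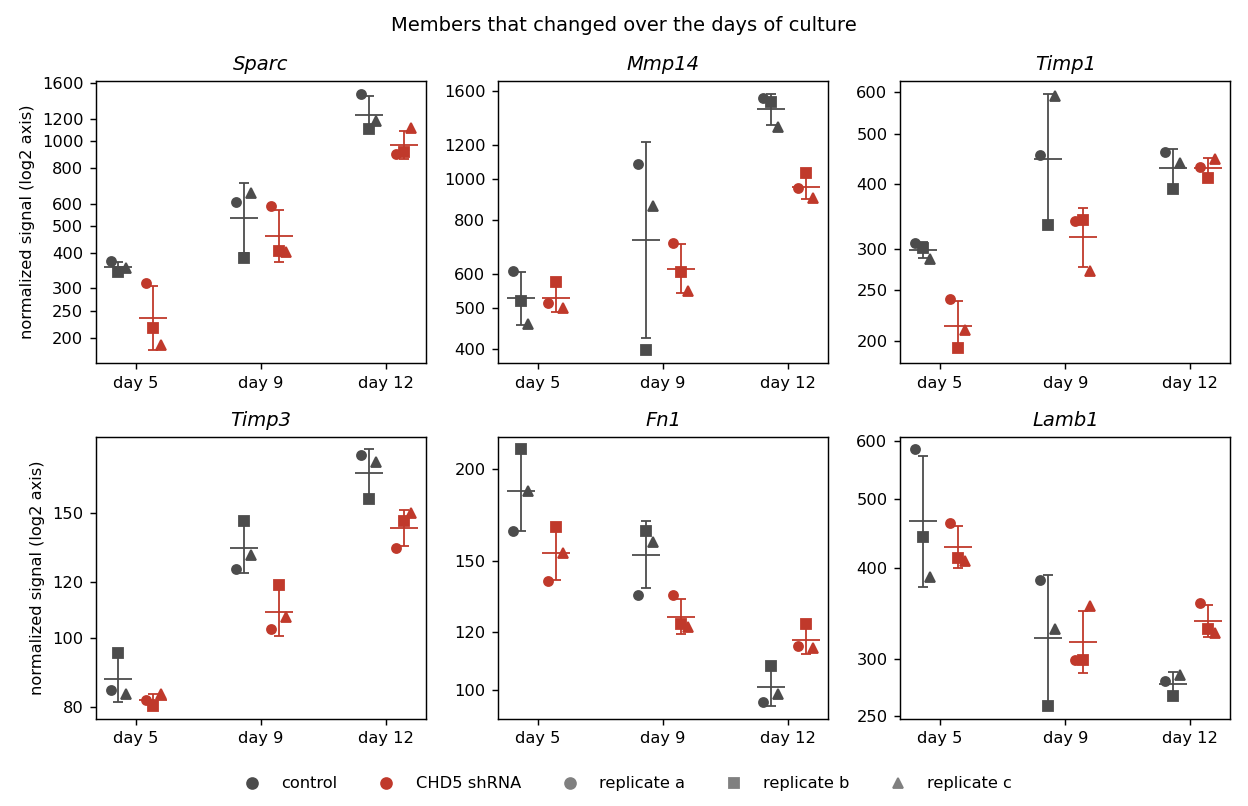
Normalized signal (vertical axis, log2 scale) of 6 members over days 5, 9 and 12 in control (grey) and CHD5 shRNA (red) cultures, one point per array, with horizontal bars for the mean of the logs and error bars for 1 SD (n = 3). Sparc, Mmp14 and Timp3 are highest at day 12 and Fn1 lowest at day 12 in both cultures, by group mean. Replicate b is the lowest control array of day 9 for Sparc, Mmp14, Timp1 and Lamb1.

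Of the collagens, Col16a1, which belongs to the collagens that sit on fibrils, went from 132, 120 and 124 in control at day 5 to 276, 174 and 243 at day 9 and 239, 241 and 242 at day 12, and in CHD5 shRNA cultures from 127, 129 and 144 to 224, 201 and 166 and then to 229, 211 and 212. Between day 9 and day 12 it changed by 0.09 in control and 0.15 in CHD5 shRNA cultures, neither of which was called, and the control value turned to -0.11 without replicate b of day 9 (limma adjusted p 0.668). From day 5 to day 12 its rise was 0.94 (SE 0.14, limma adjusted p 5.25e-05) in control and 0.71 (SE 0.14, adjusted p 0.0014) in CHD5 shRNA cultures. Col6a3 rose by 0.61 and 0.38 (SE 0.09 each, limma adjusted p 8.38e-05 and 0.00877), and 1 of the 3 control arrays of day 5 detected it. Col11a1 rose in control by 0.85 (SE 0.12, limma adjusted p 4.83e-05), of which 0.78 (adjusted p 0.00108) lay between day 9 and day 12, and in CHD5 shRNA cultures its change was 0.03 (SE 0.12, adjusted p 0.918). The day 12 control arrays enter both this rise and the day 12 difference between the lentiviruses, so they are not separate observations. Col27a1 rose by 0.41 in control (limma adjusted p 0.00727), and its change in CHD5 shRNA cultures was 0.17 (adjusted p 0.327). Itgb1 rose by 0.58 (SE 0.10, limma adjusted p 0.000305) in control and by 0.36 (SE 0.10, adjusted p 0.0175) in CHD5 shRNA cultures, and the latter call was lost when replicate a or b of day 5 or b of day 12 of that culture was left out.

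Col1a2, Fn1, Nid1, Lamb1 and Col5a2 were the members with the largest falls in control. Col1a2 fell by 1.73 (SE 0.26, limma adjusted p 6.6e-05), most of it between day 9 and day 12 (fell by 1.43, adjusted p 0.00318). In the CHD5 shRNA cultures its change was -0.68 (SE 0.26, limma adjusted p 0.0816). Fn1 had 165, 213 and 187 in control at day 5 and 96.3, 108 and 98.8 at day 12, and 141, 167 and 154 against 115, 123 and 114 in the CHD5 shRNA cultures. It fell by 0.89 (SE 0.11, limma adjusted p 6.27e-06) in control and by 0.39 (SE 0.11, adjusted p 0.0183) in CHD5 shRNA cultures, a difference of 0.51 between the cultures (SE 0.15, adjusted p 0.253). Only 1 of the 3 control arrays of day 12 detected Fn1, so the control fall ran into background, and with neqc, which subtracts background, it fell by 1.60. The CHD5 shRNA call of Fn1 was lost without replicate b or c of day 5 or replicate a or c of day 12 of that culture. Nid1 fell by 0.80 (SE 0.13, limma adjusted p 0.000179) in control, and its change in CHD5 shRNA cultures was -0.29 (SE 0.13, adjusted p 0.161).

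Lamb1 had 585, 442 and 389 in control at day 5 and 279, 266 and 285 at day 12, against 462, 413 and 410 and then 358, 330 and 326 in the CHD5 shRNA cultures. The days did not overlap in either culture. It fell by 0.75 (SE 0.15, limma adjusted p 0.000866) in control and its change in CHD5 shRNA cultures was -0.34 (SE 0.15, adjusted p 0.124). Without control replicate b of day 9 the changes of Nid1 (-0.29), Lamb1 (-0.35) and Col1a2 (-0.70) in CHD5 shRNA cultures were called (limma adjusted p 0.0378, 0.0299 and 0.0323). Col5a2, a chain of the fibril-forming type V collagen, fell by 0.63 and 0.60 (SE 0.17 each, limma adjusted p 0.0094 and 0.0165), and either call was lost without replicate a of day 5 of its own culture, the CHD5 shRNA call also without replicate b of day 5 or of day 12.

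**Figure D5:**
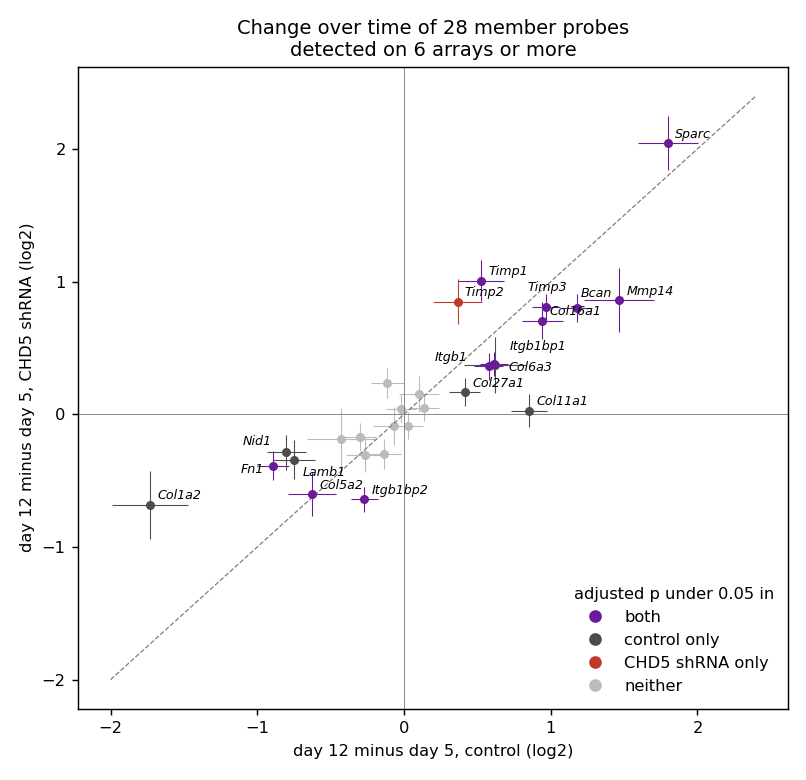
Change from day 5 to day 12 (log2) of the 28 member probes detected on 6 or more arrays in control (horizontal axis) and in CHD5 shRNA cultures (vertical axis), with bars of 1 SE and colours for the cultures in which limma's adjusted p was under 0.05. The dashed line marks equal change, and Sparc stands at 1.80 and 2.04, Col11a1 at 0.85 and 0.03 and Col1a2 at -1.73 and -0.68.

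No matrix probe passed the test of whether its change over time differed between the cultures (limma, 0 of 41 called and 8 at an unadjusted p under 0.05, against 0.153% of all tested probes called and 6.75% at an unadjusted p under 0.05). The smallest adjusted p was 0.075, of Col11a1. This probe was called in 8 of the alternatives and omissions tried, and Bcan in 1 of them.

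Of the 41 tested probes 21 were called in none of the 5 comparisons of lentiviruses or of day 12 with day 5. Between the lentiviruses they differed by -0.30 to 0.23 on day 5, by -0.33 to 0.29 on day 9 and by -0.22 to 0.21 on day 12. Their changes over time lay between -0.43 and 0.34 in control and between -0.35 and 0.24 in CHD5 shRNA cultures.

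The binding partners were not called between the lentiviruses. Itgb1bp1, which binds the tail of the beta-1 integrin, rose from 639, 473 and 439 at day 5 to 855, 691 and 815 at day 12 in control (0.62, SE 0.21, limma adjusted p 0.0404), a call that was lost without any 1 of 8 arrays, 4 of them in the compared groups. Itgb1bp2, also called melusin, a protein known from muscle, was detected on all day 5 arrays and on no day 12 array. It was at least 1.16-fold lower at day 12 in control (limma adjusted p 0.0445) and at least 1.41-fold lower in CHD5 shRNA cultures (adjusted p 9.45e-05), and the control call was lost under 5 of 8 alternatives and without any 1 of 12 arrays. Itgb3bp and Col4a3bp, a ceramide carrier now named Cert1, were not called in any comparison between the lentiviruses or of day 12 with day 5.

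Related matrix genes outside the name rule were looked at as fixed lists. These lists were set with earlier results of these data known, so their shares of calls are no independent evidence. Their counts, medians and differences all include the weak control array b of day 9. For the matrix probes, the day 9 median was -0.17 with that array and -0.08 without it. How far it shifts the day 9 values of these lists was not tested. Of 30 tested probes for matrix enzymes and inhibitors, 1 was lower at day 5, 8 at day 9 and 8 at day 12, and none was higher, against 0.126%, 2.25% and 3.24% of all tested probes that were lower, with median differences of -0.02, -0.18 and -0.17. Htra1, a secreted serine protease, differed by -1.46 (SE 0.11, limma adjusted p 1.19e-06) at day 9 and -1.81 (SE 0.11, adjusted p 7.18e-08) at day 12. Serpine2, an inhibitor of thrombin and plasminogen activators, differed by -0.77 (adjusted p 0.00152) and -0.91 (adjusted p 0.000222). Plat, the tissue plasminogen activator, differed by -0.73 and -0.69 (adjusted p 0.0278 and 0.0377), and Plod1, a collagen lysyl hydroxylase, differed by -0.68 and -0.69 (adjusted p 0.00098 and 0.000531). A2m, a broad protease inhibitor, differed by -0.69 and -0.67 (adjusted p 0.00482 and 0.00366). Lox, which crosslinks collagen, differed by -1.62 at day 5 and -1.49 at day 9 (limma adjusted p 0.000937 and 0.000544).

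Of 36 tested probes for other glycoproteins and proteoglycans, 2 were lower at day 5, 9 at day 9 and 7 at day 12, where 1, Reln, was higher, set against the same shares of all tested probes (2.23% were higher at day 12). The medians were -0.10, -0.21 and -0.20. Gpc4, a glypican, was lower on all 3 days (-0.59, -0.37 and -0.39, limma adjusted p 0.021, 0.0463 and 0.0357), and so was Spock2, a testican (-0.78, -0.51 and -0.83, adjusted p 0.0312, 0.046 and 0.00218). Dcn, decorin, was detected on none of the CHD5 shRNA arrays of days 9 and 12, where it was at least 1.23-fold and 1.51-fold lower than in control (adjusted p 0.00355 and 0.000443). The older-named Vcan probe, versican, was detected on all arrays and was not called (0.12, -0.03 and -0.24 at days 5, 9 and 12, smallest limma adjusted p 0.688). Of 25 tested probes for adhesion linkers and matrix-linked signals, 0, 1 and 1 were called at the 3 days (0.171%, 5.89% and 5.47% of all tested probes). Both calls were Itgav, the alpha-V integrin chain, which the rule misses because no digit follows its name. It differed by -0.64 at day 9 and -0.63 at day 12 (SE 0.13 each, limma adjusted p 0.00809 and 0.00646).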

How the data were processed

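Total RNA of primary rat cortical neurons was hybridised to 18 Illumina RatRef-12 arrays. The deposited intensities are mean bead signals per probe, which the authors extracted with GenomeStudio (1.1.1 in the submitters' processing notes) and left without normalization or background subtraction. The deposited detection p-values set each probe against the negative control beads of its array. Replicate a of each group was measured again. These 6 repeats entered an alternative only.

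Probes were kept whose detection p-value was 0.02 or less on 1 or more arrays (11079 of 22523), a limit taken from the study's methods. Their further demand for consistent signal is not defined there and was not applied. As in the methods, log2 signals were Z-transformed per array, and they were rescaled by the average of the arrays' SDs. limma 3.58.1 (lmFit and eBayes, R 4.3.3) was fitted to 6 groups of 3 arrays, and p-values were adjusted by Benjamini-Hochberg within a contrast over all kept probes, with a limit of 0.05. With 3 arrays against 3, an exact permutation p (two-sided) cannot go below 0.1. The number of arrays limits the precision. The fit was tested on simulated data.

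Named were all members called between the lentiviruses, the 6 largest called rises and falls over time in each culture among members that every array of the higher group detected, a fixed list of matrix genes, and up to 6 genes per related list called at 2 or more days. The members and lists were chosen with earlier results of these data known. Alternatives were quantile normalization, median centring, neqc with an offset of 16, no or a stricter detection filter, array weights, the mean of repeat measurements, a fit of each day by itself, blocks of the replicate letters, criteria of the study's methods (Z-ratio beyond 1.5, false discovery rate under 0.3 and unadjusted p under 0.05, without their demand for a background-corrected signal above 0), and leaving out each array. The letters were checked for pairing by correlating deviations of same-lettered arrays from their group means across probes. Day 5 gave 0.27, 0.17 and 0.38, and days 9 and 12 each gave at least 1 value under 0.1. The pairing was accepted for day 5 alone. Lists checked for other cell types were markers of neurons, proliferating cells, fibroblasts and meninges, astrocytes, microglia, the oligodendrocyte lineage, and endothelial cells with pericytes. All 89 member probes matched a RefSeq gene by its gene number. Sequences are from RefSeq, GRCr8, and the genome build of the probe coordinates is not given in the sources used here. The slide of each array is not given in the sources used here, so no batch could be tested. No probe is annotated to Chd5, so its depletion was not analysed here. 1 member is counted but not otherwise reported here.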

Additional observations from a re-analysis of the deposited data

How the results depend on the processing

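Of the 7 differences called between the lentiviruses, none changed its sign under any alternative, nor did the 30 called changes over time. The numbers of members called moved as follows. At day 5 (1 member) the number was 0 with median centring, without the detection filter, with the replicate block within a day, and by the criteria of the study's methods, and 0 to 2 when 1 array was left out. At day 9 (4 members) it was 0 with median centring, 1 without the detection filter, 0 with only the 6 arrays of that day, 1 by the criteria of the study's methods, and 0 to 8 when 1 array was left out, lowest without CHD5 shRNA replicate c and highest without control replicate a of day 9. At day 12 (2 members) it was 1 with median centring, 17 with array weights, 12 with only the 6 arrays of that day, and 1 to 5 when 1 array was left out, highest without control replicate b of day 9. The change from day 5 to day 12 gave 17 members in control, within 1.5 times under every alternative (14 to 22 when 1 array was left out), and 13 in CHD5 shRNA cultures, with 24 under array weights and 9 to 21 when 1 array was left out. For the change of the CHD5 shRNA difference from day 5 to day 12 (0 members) it was 1 with quantile normalization, 1 with neqc, 1 with the stricter detection filter, 2 with array weights, 1 with the mean of repeat measurements, 1 with the replicate block over all days, and 0 to 1 when 1 array was left out. Under the replicate block within a day 4 members at day 9 and 2 at day 12 were called. The member called at day 9 by the criteria of the study's methods was Lamb2. The causes were not tested. Col11a1 at day 12 was called in all 9 alternatives and without any of the 18 arrays. The array weights did not reach their convergence limit. Signal near background limits the 13 tested members detected on 1 to 5 arrays most.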

Other observations

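Markers of fibroblasts and meninges that are not themselves members had a summed normalized signal of 4570 to 5770 in control and 3630 to 4450 in CHD5 shRNA arrays at day 5, 8020 to 16200 against 5250 to 6380 at day 9, where the weak control array b held the 16200 and the other control arrays 8020 and 10000, and 7160 to 8250 against 4940 to 5270 at day 12. Most of these sums at days 5 and 12 came from Igfbp2. Its means were 4029 in control and 3292 in CHD5 shRNA arrays at day 5, and 5322 against 3058 at day 12. Col1a1, Col3a1, Ptgds and Slc6a13 were detected on no array, and Pdgfra is also on the oligodendrocyte list. Of 9 markers of fibroblasts and meninges tested, 0, 5 and 4 were lower and 0, 1 and 1 higher on the 3 days, the higher one being Thy1, which neurons also express. Col1a2, a member and a marker of these cells, was lower at day 9 and overlapped between the groups at day 12. Markers of the oligodendrocyte lineage, neurons and proliferation summed to 6200 to 36900, 38000 to 232000 and 6480 to 9370 over all arrays. The highest value of each was on control array b of day 9. At day 12 the sums were 15700 to 17700, 50500 to 51000 and 7610 to 7690 in control. In CHD5 shRNA arrays of that day they were 12800 to 14100, 53800 to 57200 and 6480 to 6670. The groups were also apart for the oligodendrocyte lineage at day 5 (7340 to 9150 against 6200 to 7120). For proliferation they were apart at day 9 (8500 to 9370 against 7040 to 7780). The 2 microglial markers detected summed to 149 to 261 and the 3 endothelial and pericyte markers detected to 257 to 406. Of these lists, 2 of 9 oligodendrocyte markers were lower at day 9 and 2 at day 12, and 1 of 9 neuronal markers, Tubb3, was higher on each of these days (0.55 and 0.53, limma adjusted p 0.0175 and 0.0185). No marker of proliferation, microglia or endothelial cells and pericytes was called on any day between the lentiviruses. Besides Vcan, the probe of Itga9, an integrin chain, is filed under an older name. It was called higher at day 12 than at day 5 in control (0.38, limma adjusted p 0.0265), and its changes with CHD5 depletion were 0.12, 0.10 and -0.04 on the 3 days. Also outside the rule by their filed names were Lama3, Lama4, Lamb3, Itga8, Col4a3, Col6a4, Col6a5, Col6a6, Col13a1, Col20a1 and Col28a1. Their probes were detected on no array.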
